A study of Homo sapiens with 10 samples.

Results

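Subclone 12 is 1 of 10 clonal derivatives of the human glioma line U87MG, and its expression profile was set against that of the other 9. Per the labels, the line was seeded so thinly that colonies with a single founder cell could be picked and grown on. The 10 carry the numbers 1, 2, 3, 5, 6, 8, 9, 10, 11 and 12. All were kept as attached cultures in DMEM with fetal bovine serum, penicillin and streptomycin, received no other treatment, and were collected for total RNA while growing exponentially. Each subclone is a single clone measured on 1 array, with no replicate culture, so ranks, differences and gaps below describe these 10 arrays and no test was made. In such bulk RNA, fewer cells expressing a gene and less RNA per cell cannot be told apart.

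Of the 11880 gene symbols in the table, 7095 were compared and 4785 were not. A gene entered when its highest value over the 10 arrays reached the median of all table values, 5.00 on the log2 scale. PCTK3, with a highest value of 5.0017, lay just inside this limit and IFIT3, with 5.0006, just outside it. Levels are printed as deposited. For differences, ranks and gaps the median of each array was subtracted first, so a rank can depart from the printed order where 2 subclones are close. The difference is the value in subclone 12 minus the median of the other 9, and the gap is the distance from subclone 12 to its nearest neighbour where it is the highest or the lowest of the 10. A total of 29 genes passed the limit only through their value in subclone 12, and 7 of these were at least 2-fold higher there; such genes had to differ.

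The array of subclone 12 had a median of 4.99 and an upper quartile of 7.25, inside the ranges over all 10 arrays of 4.87 to 5.11 and 6.75 to 7.36. The number of arrays limits the precision. Of the glioma markers, the hyaluronan receptor CD44 was at 9.97 in subclone 12 and the secreted lectin CHI3L1 at 12.33. NES was highest in subclone 12, at 7.55 against 5.14 to 7.47, and EGFR was lowest, at 4.53 against 4.59 to 5.44. GFAP (3.88) and SOX2 (3.75) did not reach the limit in any subclone. Few markers of other cells reached it: 3 of 10 for neurons, 0 of 9 for endothelium, 2 of 11 for leukocytes and microglia, 1 of 9 for epithelium and 1 of 8 for oligodendrocytes. The last was CNP, a myelin phosphodiesterase gene on chromosome 17, at 9.31 in subclone 12 against 7.97 to 9.19 in the others.

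Neurotensin, the product of NTS, is a secreted peptide that is cut from its precursor by prohormone convertases and acts on G protein-coupled receptors in brain and gut. DIRAS3 is a small GTPase of the RAS superfamily that restrains growth; its gene is imprinted and is often silenced in tumours. FOS is a subunit of the transcription factor AP-1, made within minutes of a growth signal, and FOS and EGR1 are classic targets of serum response factor. MYL9 is a regulatory light chain of myosin, whose phosphorylation drives contraction.

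The promoters of NTS, DIRAS3 and FOS are shown because these genes mark subclone 12, and that of EGR1 because this early gene was highest there together with FOS. The sequences are from RefSeq (GRCh38.p14) and cover the 250 bases before the annotated start, 5′ to 3′ along the gene. Capitals mark matches on either strand to the AP-1 site TGANTCA, the cyclic AMP response element TGACGTCA, the TATA box TATAAA or the CArG box of serum response factor. The windows are chr12:85874045-85874294 (plus strand) for NTS, chr1:68050628-68050877 (minus strand) for DIRAS3, chr14:75278578-75278827 (plus strand) for FOS and chr5:138465229-138465478 (plus strand) for EGR1. MYL9 is named only.
NTS: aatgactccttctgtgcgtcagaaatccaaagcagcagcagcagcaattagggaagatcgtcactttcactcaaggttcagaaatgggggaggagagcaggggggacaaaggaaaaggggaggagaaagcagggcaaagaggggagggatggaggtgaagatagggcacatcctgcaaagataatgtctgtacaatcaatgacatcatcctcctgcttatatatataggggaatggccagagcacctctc
DIRAS3: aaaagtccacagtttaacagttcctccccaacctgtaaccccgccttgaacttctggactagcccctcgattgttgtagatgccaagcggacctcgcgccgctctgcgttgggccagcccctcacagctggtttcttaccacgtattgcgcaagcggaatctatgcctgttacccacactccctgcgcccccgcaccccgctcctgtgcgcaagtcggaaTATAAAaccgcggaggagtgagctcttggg
FOS: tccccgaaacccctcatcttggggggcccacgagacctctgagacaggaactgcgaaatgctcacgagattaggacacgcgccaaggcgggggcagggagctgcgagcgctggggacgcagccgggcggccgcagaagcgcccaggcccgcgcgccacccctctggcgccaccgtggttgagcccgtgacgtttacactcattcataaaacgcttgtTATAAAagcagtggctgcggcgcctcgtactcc
EGR1: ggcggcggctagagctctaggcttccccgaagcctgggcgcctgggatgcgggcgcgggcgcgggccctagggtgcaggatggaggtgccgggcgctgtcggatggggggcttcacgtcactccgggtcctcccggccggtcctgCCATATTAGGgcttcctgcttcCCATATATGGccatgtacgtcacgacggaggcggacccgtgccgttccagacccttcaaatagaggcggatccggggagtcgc

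DIRAS3 held a TATA box beginning at position -30 from the start, and FOS one at -33. EGR1 held CArG boxes at -105 and -83. None of the 4 motifs lay in the NTS window, which says only that these letters are not in it. The same holds for motifs unmarked in the other windows, such as the CArG box for FOS. Bases beyond these 250 were not searched. Over all 35116 promoters of this length, 10.7% held the TATA box, 6.57% the AP-1 site, 1.65% the cyclic AMP response element and 1.16% a CArG box. The NTS window held 2 CpG dinucleotides, DIRAS3 17, and FOS and EGR1 25 each, against a median of 11 over all promoters.

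In subclone 12, 115 genes (1.62% of those compared) were at least 2-fold higher than the median of the other 9, and 93 (1.31%) were at least 2-fold lower. It was the highest of the 10 in 655 genes (9.23%) and the lowest in 373 (5.26%). With a gap of at least 0.5 log2 units it stood apart above in 35 genes (0.493%) and below in 22 (0.31%). Some of the genes apart above passed the limit only through subclone 12. With the limit set on the mean value, 21 were apart above and 18 below. It was above the median of the other 9 in 4074 genes (57.4%) and below it in 3021 (42.6%). The median difference over all genes was 0.06 and the median absolute difference 0.22. With arrays centred on the upper quartile the median difference was -0.01, and list medians under that centring are to be read against it. The share of calls above depended on the scaling. Of the 2-fold calls 55.3% were above, against 46.0% with arrays centred on the upper quartile. Of the highest and lowest calls 63.7% were above, against 37.8%, and of the calls apart 61.4%, against 38.3%. With the intensity trend removed, 50.2% of the 2-fold calls were above, and the other calls were split evenly.

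**Figure D1:**
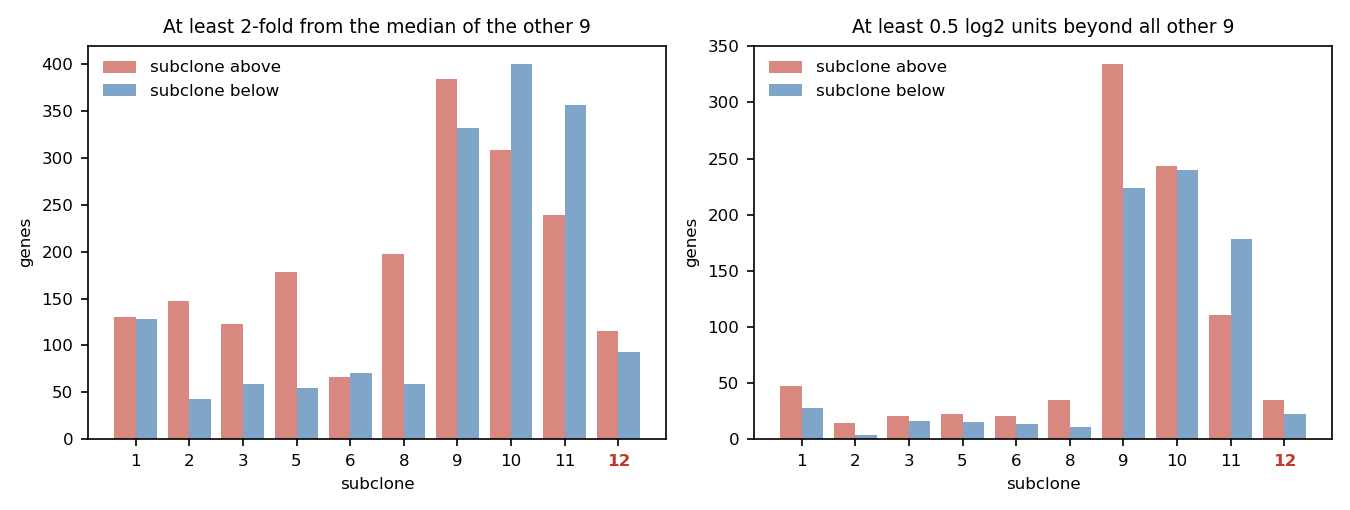
Number of genes at least 2-fold higher or lower than the median of the other 9, and number apart from all others by at least 0.5 log2 units, for each subclone treated in the same way. Subclone 12 had 115 and 93 genes past 2-fold, where the others ran from 66 to 384 higher and from 43 to 400 lower.

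Measured in the same way, subclone 9 had 384 genes at least 2-fold higher and 334 apart above, and subclone 10 had 400 at least 2-fold lower and 240 apart below. By the number of genes at least 2-fold apart, subclone 12 was nearest to subclones 1 and 6. There were 288 such genes (4.06%) between subclones 12 and 1, and 355 (5.00%) between subclones 12 and 6. By that count it was farthest from subclone 10, with 896 genes (12.6%). The correlation of gene-centred values gave another order after subclone 1 (0.22). Subclones 9 (-0.036) and 3 (-0.045) came before subclone 6 (-0.06), and subclone 8 was farthest (-0.35). Each gene was centred on its mean over all arrays, subclone 12 included, which pulls such correlations to negative values. Only their order is used here. For 34 of the 115 higher genes the highest of the other 9 was subclone 1, and for 23 it was subclone 9. All these comparisons share arrays.

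NTS had the largest difference of all genes compared. Its level was 8.35 in subclone 12, and 3.52, 3.65 and 4.0 were the lowest, median and highest of the other 9. Those 9 lay close together under the table median, and subclone 12 stood alone. The difference was 4.71, or 26.1-fold, and the gap 4.25. PCSK2, a convertase that cuts prohormones in secretory granules, was at 5.21 in subclone 12 against 3.47 to 4.25, a difference of 1.64 without overlap. QPCT, the enzyme that forms the pyroglutamate at the start of neurotensin, was by contrast lowest in subclone 12, at 4.47 against 4.86 to 8.30, a difference of -2.0. NTSR1, NTSR2 and SORT1, the receptors that bind neurotensin, did not reach the limit in any subclone. These genes of neurotensin processing and reception were grouped after their values were seen.

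Of the neuropeptide and secretory granule list, 14 of the 36 genes in the table passed the limit, and the median difference was -0.21. Of these 3 were at least 2-fold higher and 0 lower, against 1.62% and 1.31% of all genes. NMB, the precursor of neuromedin B, was highest in subclone 12 at 9.83 against 7.73 to 9.55. CALCB, a calcitonin gene-related peptide, had 6.03 in subclone 12 and 7.82 in subclone 3. The other members that process peptides were under the median of the others, with differences of -0.64 for the convertase PCSK1, -0.89 for the carboxypeptidase CPE and -0.21 for the amidating enzyme PAM. NTS, PCSK2 and NMB were the 3 members highest in subclone 12, but NTS and PCSK2 passed the limit only through their value there and had to be highest. With the limit set on the mean value, 1 of 9 members was highest, against 589 of all 5959 genes.

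DIRAS3 was at 10.52 in subclone 12. The other 9 ran from 4.72 in subclone 9 to 8.79 in subclone 3, with a median of 7.25. They were themselves spread widely, and all lay under subclone 12. The difference was 3.23, or 9.38-fold, and the gap 1.84. Of the list of atypical RAS-like GTPases, 11 of 18 genes passed the limit, with a median difference of 0.24. In subclone 12, 3 were highest and 1 lowest, against 9.23% and 5.26% of all genes. GEM, which restrains calcium channels, was highest at 10.83 against 9.82 to 10.65. Its relative RRAD was at 8.82 in subclone 12 but at 10.17 in subclone 9. RAP1A, a GTPase of cell adhesion, was lowest, at 9.34 against 9.64 to 10.33.

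Of 20 imprinted genes measured, 12 passed the limit, and DIRAS3 was the only one past 2-fold. The list had 3 members highest, against 9.23% of all genes, and 1 lowest, with a median difference of 0.03. With arrays centred on the upper quartile only 1 was highest, against 388 of all 7095 genes. PEG10, a retrotransposon-derived gene, was highest in subclone 12 at 7.17 against 6.19 to 7.11, a gap of 0.02.

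FOS reached 6.86 in subclone 12, with subclone 1 next at 6.16 and subclone 3 after it at 5.59. Below these came subclones 5 (5.16), 6 (5.04), 2 (4.70), 8 (4.40) and 9 (4.02), and last subclones 11 (3.32) and 10 (3.31). Subclone 12 ended a continuous range rather than standing alone. The difference was 2.26, or 4.79-fold, and the gap 0.68.

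Other early response genes were highest or lowest in subclone 12. EGR1, a zinc finger factor, was highest at 8.46 against 6.17 to 8.18. BTG2, an antiproliferative gene, was highest at 5.41 against 4.18 to 4.61, with the others close together. FOSL1, a relative of FOS, was lowest at 7.25, and MAFF, a small leucine zipper factor, was lowest at 7.59 against 7.77 to 10.15. JUN, the usual partner of FOS, had a difference of -0.31 and JUNB one of 0.21, both inside the range of the others. Of 30 early genes measured, 25 passed the limit, with 4 highest and 3 lowest, against 9.23% and 5.26% of all genes. The median difference was 0.21. It was 0.12 with arrays centred on the upper quartile and 0.05 against the mean of the other 9. BTG2 passed only through its value in subclone 12. With the limit on the mean value 2 of 20 were highest, against 589 of all 5959 genes.

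MYL9 was at 9.02 in subclone 12, against a lowest of 6.86, a median of 8.26 and a highest of 8.81. Subclones 5, 1 and 9 lay just under it and subclones 3, 8, 10 and 11 well below. The difference was 0.86, or 1.82-fold, and the gap 0.24, so MYL9 did not reach 2-fold. Leaving single subclones out of the reference gave 0.71 to 1.21. Of the contractile and serum response factor target list, 29 of 38 genes passed the limit. Of these 5 were highest and 2 lowest, against 9.23% and 5.26% of all genes. FHL2, a LIM protein of focal adhesions, was highest at 11.60 against 9.84 to 11.10. TGFB1I1, another LIM protein of focal adhesions, was lowest at 8.41 against 8.79 to 9.78, and ZYX was lowest at 6.89 against 7.03 to 7.82. The smooth muscle genes TAGLN (-0.49), CNN1 (-0.45) and ACTA2 (-0.12) were under the median of the others. The list median was 0.08, and -0.07 with arrays centred on the upper quartile.

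**Figure D2:**
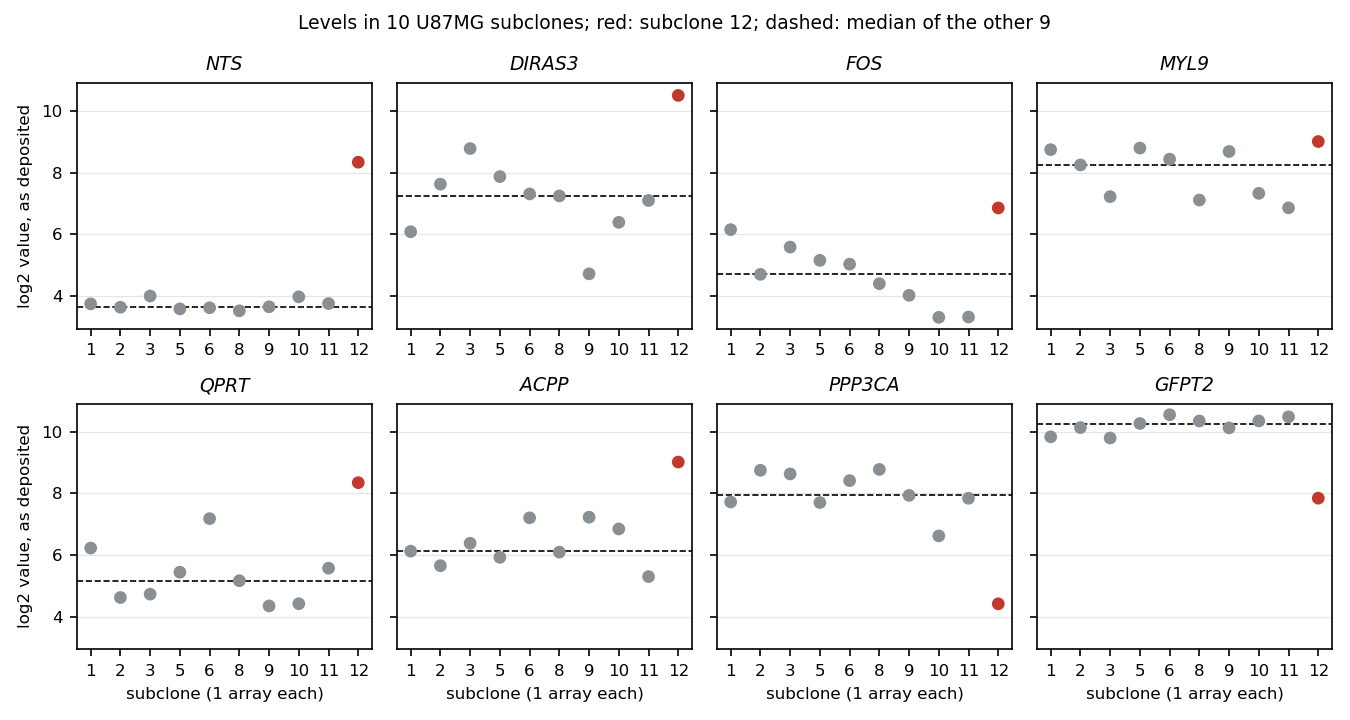
Deposited log2 values (vertical axis) of 8 genes in each of the 10 subclones (horizontal axis, 1 array each); the dashed line is the median of the other 9. NTS, DIRAS3, QPRT and ACPP lay above all other points in subclone 12 and PPP3CA and GFPT2 below them. FOS (6.86) and MYL9 (9.02) were also highest there, with smaller gaps of 0.68 and 0.24.

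QPRT, which makes nicotinic acid mononucleotide from quinolinate in the synthesis of NAD, was at 8.35 in subclone 12 against a lowest of 4.35, a median of 5.17 and a highest of 7.18. Subclone 6 was nearest, with a gap of 1.15, and the difference was 3.15, or 8.88-fold. NAMPT, which recycles nicotinamide into NAD, was lowest in subclone 12, at 8.22 against 8.96 to 11.07. NMNAT2, a later enzyme of the pathway, was highest at 7.73 against 4.54 to 7.55. TDO2, the dioxygenase that opens tryptophan, was at 6.05, inside the range of 4.86 to 8.26. KYNU and HAAO, which act between tryptophan and quinolinate, each ranked 5 of 10. Members of this group thus lay at both ends and in the middle; it was formed after the values were seen.

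ACPP, the prostatic acid phosphatase, was at 9.02 in subclone 12 against 5.30, 6.13 and 7.23 for the lowest, median and highest of the others, a difference of 2.87 with a gap of 1.79. HSPA12A, a distant relative of HSP70, was at 6.03 against 3.53 to 4.47 (gap 1.54). PDE1A, a calmodulin-dependent phosphodiesterase, was at 6.02 against 3.52 to 4.72 (gap 1.27). These genes were taken from those in which subclone 12 was highest, so the lack of overlap follows from the choice. HSPA12A and PDE1A passed the limit only through their value in subclone 12 and had to be highest. TIMP3, an inhibitor of matrix proteases, was at 7.37, with subclone 8 at 6.85 and a median of 4.69. Gaps were small for KIAA1199, a hyaluronan-binding protein (8.21, gap 0.22), and for PPP2R2B, a regulatory subunit of phosphatase 2A (7.92, gap 0.06). The remaining genes of the 15 farthest above were SLC27A3, FDXR, HIST2H2BE, ACSM5 and TP53I3, with differences from 1.74 to 1.86.

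PPP3CA, the catalytic alpha subunit of the calcium-dependent phosphatase calcineurin, was the farthest below among genes in which subclone 12 was the lowest of the 10. Over all genes JAM2, a junctional adhesion molecule, was lower still (difference -3.65), but subclone 9 was below subclone 12 for it. PPP3CA was at 4.42 in subclone 12 against a lowest of 6.62, a median of 7.94 and a highest of 8.78. The difference was -3.48, or 11.1-fold lower, with a gap of 2.33. The beta catalytic subunit PPP3CB was at 8.85, inside the range of 7.88 to 9.19, and the regulatory subunit PPP3R1 at 6.14, inside 5.52 to 6.62. RCAN1, a calcineurin inhibitor whose gene calcineurin itself activates, was lowest in subclone 12, at 5.87 against 5.95 to 7.90. RCAN2, a related inhibitor, was second highest, at 5.13 with subclone 1 at 7.67. These calcineurin genes were grouped after their values were seen.

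GFPT2, which starts the hexosamine pathway, was at 7.85 in subclone 12, while the other 9 lay together between 9.80 and 10.56. The difference was -2.31, or 4.97-fold lower, with a gap of 1.84. UBE2K, a ubiquitin-conjugating enzyme, was at 4.25 against 5.36 to 7.02, a difference of -2.35. FBN2, the microfibril protein fibrillin-2, was at 3.79 with subclone 9 close by at 4.18 (difference -3.21, gap 0.27). Subclone 12 thus stood alone for GFPT2 and UBE2K and shared its low FBN2 with subclones 9 and 1, where it was at 4.18 and 4.78, against at least 6.44 elsewhere.

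IL13RA2, a decoy receptor for interleukin 13 that is common in glioma, was lowest in subclone 12 but still at 8.73, against 9.47 to 11.63. ST8SIA5, a sialyltransferase of gangliosides, was at 4.35 against 5.30 to 7.38 (gap 1.02). FGF13, an intracellular fibroblast growth factor homologue, was at 6.44 against 7.43 to 8.70 (gap 1.04). These genes were taken from those in which subclone 12 was lowest, so the lack of overlap follows from the choice. The other genes of the 15 farthest below were MCTP2, RORA, COL21A1, TMEM90B, PNMA2, SORBS2 and HSPA2, with differences from -1.73 to -1.49 and gaps from 0.04 to 0.73.

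**Figure D3:**
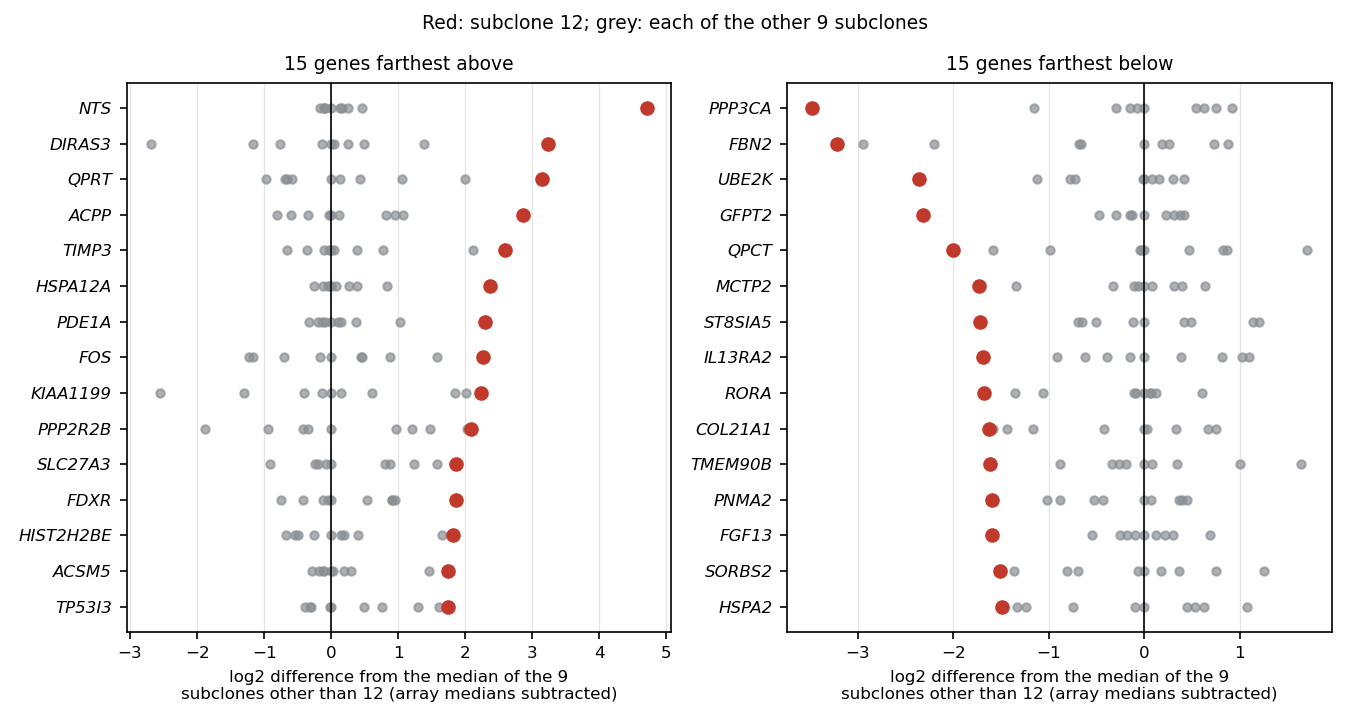
The 15 genes farthest above and the 15 farthest below among those in which subclone 12 was highest or lowest, with all 10 subclones on the array-centred log2 scale. NTS and PPP3CA had the largest gaps, 4.25 and 2.33, and COL21A1 one of the smallest, 0.04.

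Some genes far above the median were shared with another subclone. RAMP1, a receptor partner for calcitonin-family peptides, reached 8.46 in subclone 12 beside 8.74 in subclone 1, and no more than 6.44 elsewhere. CXCL14, a chemokine, was at 7.72 and 8.87 in the same pair, against at most 5.55 elsewhere. LBP, which binds lipopolysaccharide, was at 8.89, between subclone 2 at 8.55 and subclones 1 and 5 at 9.94 and 10.49. These genes did not separate subclone 12 from subclone 1. They were chosen after their values were seen.

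Of 18 p53 target genes measured, 15 passed the limit, and 14 of these were above the median of the other 9, as were 57.4% of all genes. Subclone 12 was the highest of the 10 in 6 of them, against 9.23% of all genes. FDXR, a mitochondrial electron carrier, was at 6.66 against 4.14 to 5.82. PHLDA3, an inhibitor of AKT, was at 7.60 against 6.36 to 6.99. TP53I3, an oxidoreductase, was at 7.41 against 5.16 to 7.25, and CDKN1A, the cell cycle inhibitor p21, was at 9.00 with the next at 8.65 in subclone 11. XPC, a DNA damage sensor, and BTG2, which passed the limit only through subclone 12, were the remaining 2. The list median was 0.47, against -0.38 to 0.35 in the other subclones and 0.06 over all genes. With arrays centred on the upper quartile it was 0.30, against -0.01 over all genes. Without genes of chromosomes 1, 2, 4, 17 and 22 the list median was 0.33. Of its genes 2 of 10 were then highest, against 340 of all 5104 left.

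All 14 heat shock genes past the limit were above the median of the others, against 57.4% of all genes, with a list median of 0.41 and -0.37 to 0.32 in the other subclones. Subclone 12 was highest in 5, against 9.23% of all genes. With values as deposited it was highest in only 2 of the 14, against 548 of all 7095 genes. HSPB8, a small heat shock protein, was at 9.38 against 7.39 to 9.13, and the mitochondrial chaperonin HSPD1 at 11.18 against 10.27 to 11.17. CRYAB, another small heat shock protein, was at 7.92, behind subclone 1 at 8.43. In the cholesterol synthesis list, 16 of 17 genes were above the median of the others, against 57.4% of all genes, the list median was 0.41 and no member reached 2-fold. FDPS, which makes farnesyl diphosphate, and FDFT1, which joins it into squalene, were highest in subclone 12, each with a difference of 0.37. In the NRF2 target list 13 of 15 genes were above and 4 highest, against 57.4% and 9.23% of all genes, with a median of 0.26. With arrays centred on the upper quartile 2 were highest, against 388 of all 7095 genes, and the median was 0.16. OSGIN1 passed the limit only through subclone 12. TKT, a transketolase, was at 10.94 against 10.03 to 10.55.

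**Figure D4:**
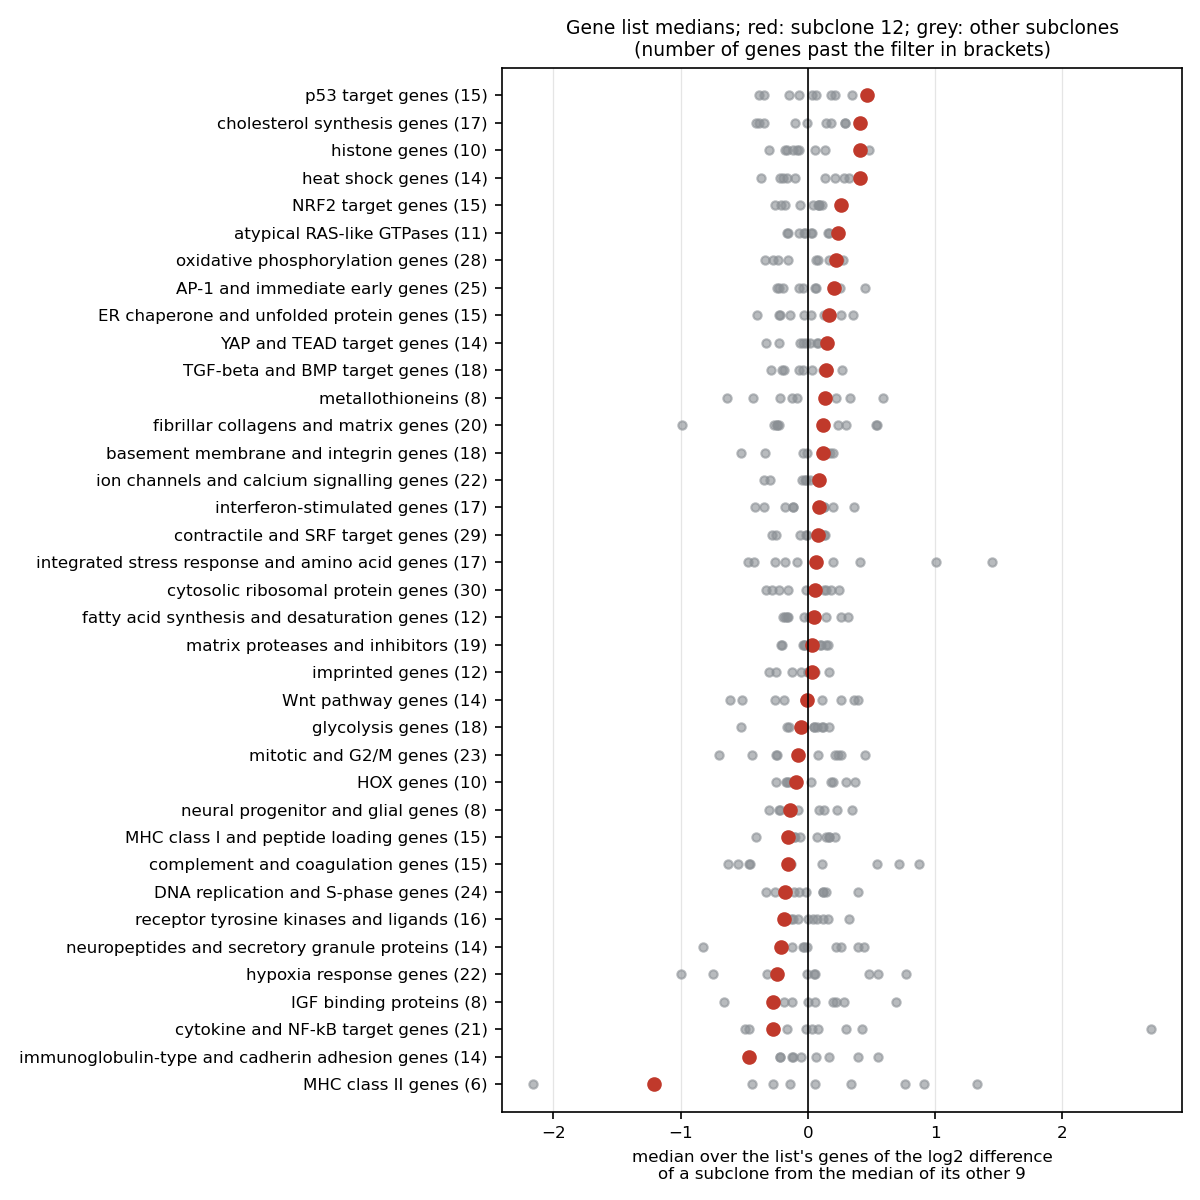
Median difference (log2, horizontal axis) of each gene list with at least 5 genes past the limit, for subclone 12 and the other 9 subclones. Subclone 12 was first of 10 for p53 targets (0.47), heat shock genes (0.41) and cholesterol synthesis (0.41), and last for immunoglobulin-type and cadherin adhesion genes (-0.46).

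Matrix genes lay on both sides. COL4A1 and COL4A2, the paired chains of basement membrane collagen, were highest in subclone 12, at 5.18 against 3.70 to 4.62 and at 5.60 against 4.05 to 4.94. LAMA4, a laminin chain, was highest at 7.45 against 5.68 to 7.13. Of the 18 basement membrane and integrin genes past the limit 5 were highest and 0 lowest, against 9.23% and 5.26% of all genes. The list median was 0.12, or -0.03 with arrays centred on the upper quartile. COL4A1 and COL4A2 passed only through their value in subclone 12. With the limit on the mean value 3 of 13 were highest, against 589 of all 5959 genes. CTGF, a matrix-associated growth factor and YAP target, was highest at 8.23 against 4.87 to 7.65. LTBP1, which stores latent TGF-beta in the matrix, was lowest at 7.39 against 8.37 to 9.68. NT5E, an ectonucleotidase, was lowest at 8.81 against 9.32 to 10.75.

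Among 14 adhesion genes of the immunoglobulin and cadherin type past the limit, 4 were at least 2-fold lower and 0 higher. Over all genes these shares were 1.31% and 1.62%. The list median was -0.46, or -0.02 without the limit on low values. PCDH9, a protocadherin, was lowest in subclone 12, at 3.36 against 4.02 to 5.49. MHC class II genes present peptides to helper T cells. The 6 that passed were all below the median of the others, against 42.6% of all genes, with 0 lowest and a list median of -1.21. HLA-DQB1 was at 5.77, with subclone 9 lower at 5.56 and the others up to 9.52.

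Differences ran along chromosomes. On chromosome 22, 151 of 172 genes (87.8%, against 57.4% over all chromosomes) were above the median of the others. Subclone 12 was highest in 48 (27.9%, against 9.23% over all chromosomes), and the median difference was 0.32. On chromosome 17, 320 of 391 genes (81.8%, against 57.4%) were above, 89 (22.8%, against 9.23%) were highest and the median was 0.27. On chromosome 2 the median was 0.19, with 80 of 464 genes (17.2%, against 9.23%) highest. Chromosome 1 split at its longest gene-free stretch: the median was 0.03 over the 428 genes up to SEC22B and 0.32 over the 310 genes from CD160 on. For that second portion subclone 1 was close, at 0.29, and subclone 11 was at -0.40. Chromosomes 1, 2, 17 and 22 held 24.9% of the genes compared and 52 of the 115 genes at least 2-fold higher (45.2%).

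Chromosome 4 lay the other way. There, 187 of 226 genes (82.7%, against 42.6% over all chromosomes) were below the median of the others. Subclone 12 was lowest in 36 (15.9%, against 5.26% over all chromosomes), and the median was -0.32. Subclone 10 was lower still, at -0.41, and subclones 8 and 2 were at 0.44 and 0.38. Chromosome 4 held 3.19% of the genes compared and 14 of the 93 at least 2-fold lower (15.1%). On chromosome 18, with 104 genes, subclone 12 ranked last of the 10. The median there was -0.12, against -0.05 to 0.32 in the other subclones. In runs of about 25 neighbouring genes, 9 of 9 on chromosome 4 had a negative median. A positive one was found in 16 of 16 on chromosome 17, 7 of 7 on chromosome 22, 19 of 19 on chromosome 2 and 24 of 30 on chromosome 1. In the same order subclone 12 ranked first of the 10 in 10, 5, 7 and 8 of these runs, and last in 2 on chromosome 4. Only these chromosomes were cut into runs, so the share of positive runs over the others is not known. DNA copy number was not measured here.

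PPP3CA and UBE2K both lie on chromosome 4. The 3 genes on each side of PPP3CA had differences from -0.53 for MAPKSP1 to 0.71 for MANBA, and those around UBE2K from -0.71 for UGDH to 0.48 for CHRNA9. No neighbour was as low as PPP3CA (-3.48) or UBE2K (-2.35). The cell cycle genes CCNA2 and MAD2L1, also on chromosome 4, were lowest in subclone 12, at 5.67 against 5.88 to 7.40 and at 6.47 against 6.77 to 8.36. Whether these genes lie low with the rest of the chromosome was not tested.

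**Figure D5:**
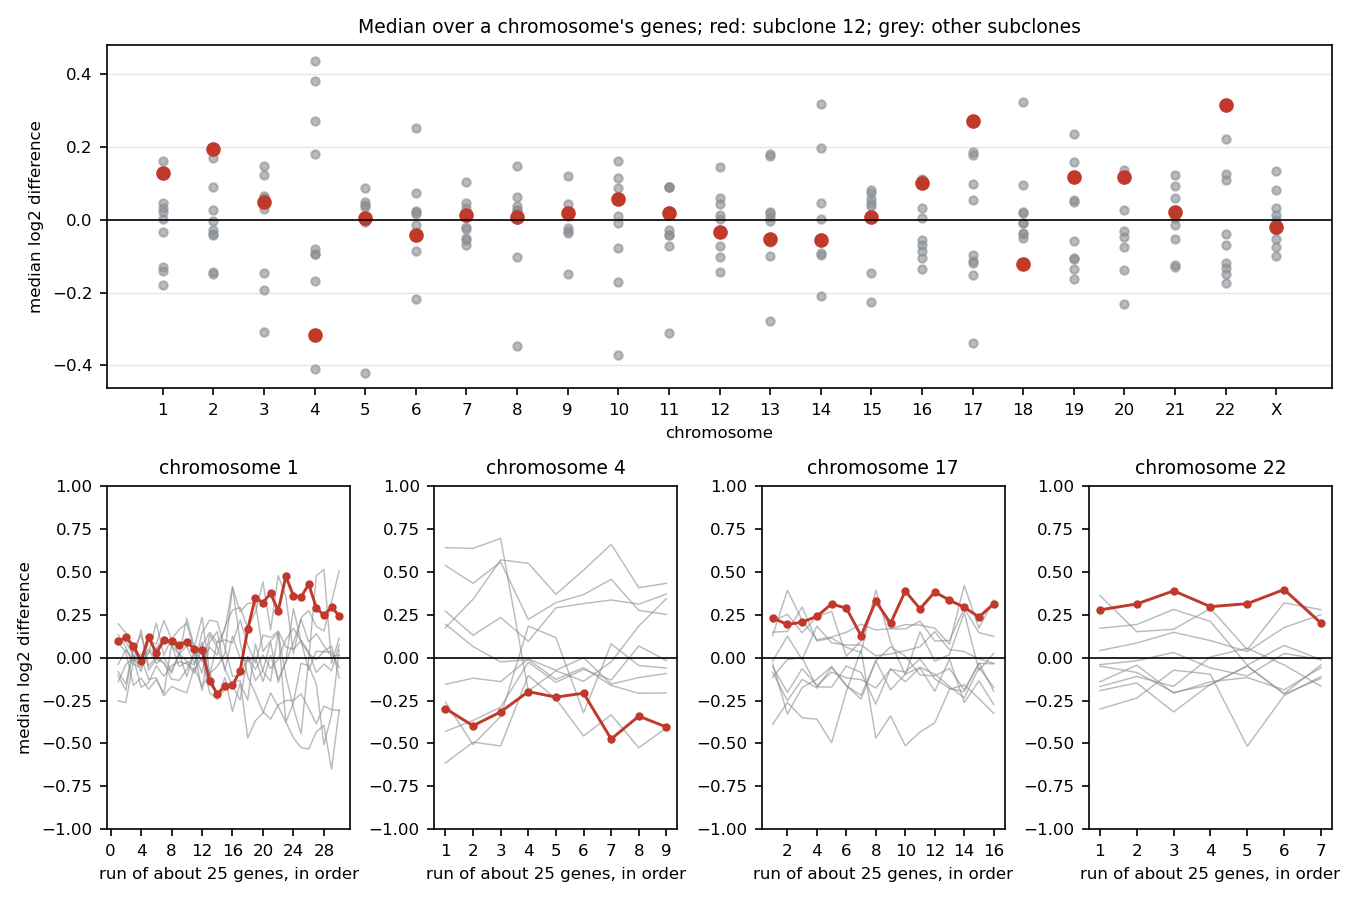
Median difference (log2) of the genes of each chromosome in the 10 subclones (top), and in runs of about 25 neighbouring genes of chromosomes 1, 4, 17 and 22 in subclone 12 (bottom). Chromosomes 22 (0.32) and 17 (0.27) were above the other subclones, and all 9 runs of chromosome 4 were below 0.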

How the data were processed

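Total RNA of 10 U87MG subclones was measured on 1 array each. The values deposited by the authors are on the log2 scale and were made with RMA, per the submitters' processing notes; for its version, the array annotation and the joining of probe sets into gene symbols, the sources used here give nothing. No column was left unmapped (0), and 0 pairs of columns were identical. Each array's median was subtracted, genes whose highest value lay under the table median were left out, and subclone 12 was set against the median of the other 9. Of the symbols, 10614 matched a current RefSeq name (GRCh38.p14), 1082 an older one and 184 none; this served for names, chromosome and gene order only. Named genes were the 4 markers, the 15 farthest above and below among those highest or lowest in subclone 12, and up to 4 members a list; others are said to be chosen after their values were seen or are given to complete a list. The 42 lists held 942 entries, of which 855 matched. The members and lists were chosen with earlier results of these data known. Alternatives changed the scaling, the filter, the reference and the gap. A value was taken as unmoved when it shifted by less than the SD over the other 9 subclones. Scripts were tested on simulated data. Tools were Python 3.11.15, numpy 2.4.6, pandas 2.3.3, scipy 1.17.1, statsmodels 0.14.6 and matplotlib 3.10.9. Some list members are not reported here.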

Additional observations from a re-analysis of the deposited data

How the results depend on the processing

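With 1 array a subclone, no difference here can be set against the spread between repeat cultures, and no paired analysis was possible because each group holds 1 sample. Over the settings that kept each gene, NTS had a difference of 4.64 to 4.75, DIRAS3 3.17 to 3.52, FOS 1.81 to 2.34 and PPP3CA -4.02 to -3.44. The filter on the mean value left out NTS and FOS. Leaving out chromosomes 1, 2, 4, 17 and 22 removed DIRAS3 and PPP3CA. Counts of genes moved more. Centred on the upper quartile, 23 genes were apart above, 37 apart below, 388 highest and 639 lowest. Filtered on the mean value, 21 were apart above, and with no filter 656 were lowest. Without subclones 9 and 10 in the reference, 65 were apart above, 55 apart below, 1010 highest and 723 lowest. Without genes of chromosomes 1, 2, 4, 17 and 22, an alternative chosen after seeing the data, 62 were at least 2-fold higher, 17 apart above and 340 highest; fewer genes were compared. A gap of 1 log2 unit left 7 above and 5 below. Leaving out single subclones gave 105 to 128 genes at least 2-fold higher, 74 to 106 lower, 36 to 62 apart above and 22 to 37 apart below, 665 to 947 highest and 387 to 525 lowest. The counts apart were 62 and 37 without subclone 9, and 57 and 34 without subclone 1. The median of oligodendrocyte markers, 0.79 for its 1 gene past the limit, was -0.023 with no filter. Counts of genes highest or lowest under alternatives were added after seeing the data. Of the differences of named genes, 1652 values under alternatives were unmoved and 2 moved, and the cause was not tested. The limit for this, the SD over the other 9 subclones, is wide for genes that vary among them. An unmoved value can therefore still shift. Over the settings PPP2R2B ran from 1.11 to 2.25 and SLC27A3 from 1.06 to 1.91.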

Other observations

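Of 22 hypoxia response genes past the limit, 16 were below the median of the other subclones in subclone 12, against 42.6% of all genes, and 4 were at least 2-fold lower, against 1.31%. The list median was -0.24, and -0.36 with arrays centred on the upper quartile. VEGFA, the vascular growth factor, was at 8.90 in subclone 12, with only subclone 1 lower at 8.64. NDRG1, a stress-responsive gene, was at 10.14, with subclones 1 and 9 lower at 10.02 and 9.34. ERO1L, the oxidase of the endoplasmic reticulum, was the lowest of the 10 at 6.34 against 6.76 to 7.80. Glycolysis genes had a median of -0.05, with 0 of 18 highest or lowest.

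Among cytokine genes subclone 12 was seldom alone. PTGS2, the inducible cyclooxygenase, was lowest at 3.58, where subclone 9 reached 9.54, and IL6 was at 5.55, where subclone 9 reached 11.29. CCL2, a monocyte chemokine, went the other way, at 9.40 in subclone 12 with only subclone 1 higher at 10.03. Of 21 genes of this list past the limit 15 were below the median of the others and 4 were lowest, against 42.6% and 5.26% of all genes. The list median was -0.28, but -0.043 over the 8 genes outside chromosomes 1, 2, 4, 17 and 22.

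In the DNA replication list 18 of 24 genes were below the median of the others, against 42.6% of all genes, with a median of -0.18 and 0 at least 2-fold lower. CDT1, which loads the replicative helicase, was lowest at 4.12 against 4.37 to 5.17. Of 28 oxidative phosphorylation genes 24 were above and 2 highest, against 57.4% and 9.23% of all genes, with a median of 0.22. With arrays centred on the upper quartile 0 were highest, against 388 of all 7095 genes, and the median was 0.14. HIST1H1C, a linker histone, was highest at 8.94 against 6.92 to 8.40.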
